A study of Homo sapiens with 4 samples.

Results

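The mRNAs of 10 genes of the translation machinery were examined, namely the cytosolic elongation factors EEF1A1, EEF1B2, EEF1D, EEF1G and EEF2 and 5 further genes whose mRNAs are usually counted among the TOP mRNAs or act with them, PABPC1, TPT1, NACA, RACK1 and FAU. They were chosen by name as abundant mRNAs of the TOP class, with earlier results of these data known, and all 10 were found among the 13300 gene names of the data. They held 104 of the 34975 transcripts listed, and the FPKM of the listed transcripts of each gene was summed to a gene total. The data were RNA immunoprecipitation sequencing (RIP-seq) libraries from HCCLM3, an established human hepatocellular carcinoma cell line. An antibody to KIAA1429 was used for 2 libraries (KIAA1429 RIP) and normal IgG, the background of the method, for the other 2 libraries (IgG RIP). Both groups were the same line, with no genetic change or treatment named in the labels, and nothing in the labels says that the replicates of a group came from separate cultures, so p-values measure only the spread between these libraries. The question of the comparison was which mRNAs came down with KIAA1429, a subunit of the complex that methylates adenosines of mRNA to N6-methyladenosine.

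Translation elongation is a cycle in which eEF1A delivers aminoacyl-tRNA to the ribosome, the eEF1B complex reloads eEF1A with GTP, and eEF2 moves the ribosome on by a codon. The mRNAs of these factors and of the ribosomal proteins form the TOP class, named for the terminal oligopyrimidine tract, a cytidine at the capped first base followed by an unbroken run of pyrimidines. Through this tract and the protein LARP1 the mTOR pathway sets how strongly these mRNAs are translated, and cells growing fast, hepatocellular carcinoma cells among them, carry them in large amounts.

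The tract was read from the transcription starts that RefSeq gives (table on GRCh38.p14). The longer promoter sequence around each start was searched on its own chromosome and strand of GRCh37, the build of the data. It matched at 1 place, and the window of 10 bases before the start and 20 bases from it is shown. A start was counted as TOP where its first base was C and the next 4 were C or T. In the sequences below, shown because this tract is what defines the class, the capitals mark the run of pyrimidines from the first transcribed base.
EEF1A1 (chr6:74230736-74230765, minus strand): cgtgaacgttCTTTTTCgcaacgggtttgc
EEF1B2 (chr2:207024609-207024638, plus strand): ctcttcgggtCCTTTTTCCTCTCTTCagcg
EEF1G (chr11:62341344-62341373, minus strand): cgggcggcttactttgcggcagcgccgaga
EEF2 (chr19:3985442-3985471, minus strand): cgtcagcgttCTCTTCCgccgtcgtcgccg
NACA (chr12:57119064-57119093, minus strand): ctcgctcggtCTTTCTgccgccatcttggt
RACK1 (chr5:180670887-180670916, minus strand): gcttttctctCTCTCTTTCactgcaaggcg
FAU (chr11:64889587-64889616, minus strand): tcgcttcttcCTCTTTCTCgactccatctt
TPT1 (chr13:45915299-45915328, minus strand): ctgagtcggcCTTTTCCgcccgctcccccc

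Of the 9 RefSeq starts of these 8 genes, 7 were TOP by this definition. Since the genes were chosen as TOP mRNAs, this count describes them and is not a result. The same definition held for 48 of 85 starts (56.5%) of cytosolic ribosomal protein genes and 1429 of 35116 (4.07%) of all starts in the table. The run was 6 bases in NACA, 7 in EEF1A1, EEF2 and TPT1, 9 in RACK1 and FAU and 16 in EEF1B2. EEF1G began with A at the start shown, and the tract of pyrimidines was absent from its first base. EEF1B2 had a further RefSeq start at position 207024333 of chromosome 2, which also began with A.

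By mean level over the libraries the members ranked from 9 (EEF1A1) to 837 (EEF1D) among all gene totals, and EEF1A1 was among the most abundant mRNAs of every library (ranks 7, 13, 12 and 9 of all gene totals in IgG RIP replicates 1 and 2 and KIAA1429 RIP replicates 1 and 2). FPKM is a fragment number corrected for the length of the transcript and for how many fragments the library mapped, so levels can be set side by side between genes, but the amount of RNA that each antibody brought down was not measured by it. The 10 genes together took 1.505% of all FPKM in IgG RIP replicate 1 and 1.69% in replicate 2, and for KIAA1429 RIP the same shares were 1.41% and 1.97%. The lower and the higher value of KIAA1429 RIP lay on either side of both IgG RIP values, so the groups overlapped. EEF1A1 alone made up between 38.6% and 43.96% of the members' sum. EEF1A1, TPT1 and several other members have processed pseudogenes of close sequence, 0 listed rows carried the name of such a copy, and how reads shared with a copy were placed is not given, so levels of these genes are uncertain to that extent.

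From the highest mean level to the lowest the order was EEF1A1, EEF2, EEF1G, PABPC1, RACK1, FAU, EEF1B2, NACA, TPT1 and EEF1D. Only 3 pairs of neighbours in this order had ranges over the libraries that lay apart, EEF1A1 above EEF2, PABPC1 above RACK1, and TPT1 above EEF1D. The order of EEF2 over EEF1G, EEF1G over PABPC1 and FAU over EEF1B2 nevertheless held within each of the 4 libraries, while NACA was above TPT1 in 2 of 4. Within the eEF1B complex, whose subunits act together, the levels were far apart, with mean totals of 721 FPKM for EEF1G, 160.2 for EEF1B2 and 58.1 for EEF1D.

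**Figure D1:**
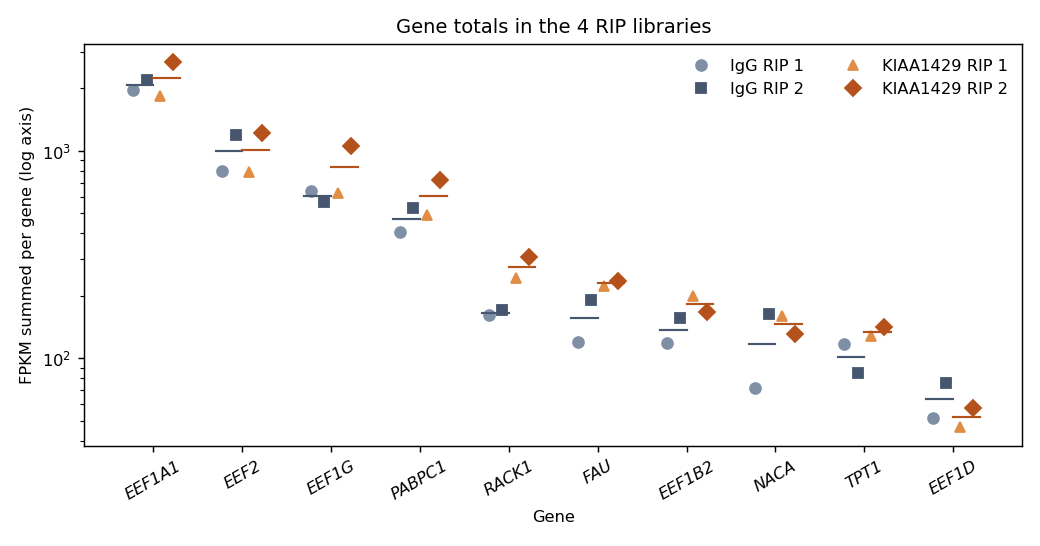
FPKM summed per gene (log axis) of the 10 genes in each library, ordered by mean level. Circles and squares are IgG RIP replicates 1 and 2, triangles and diamonds KIAA1429 RIP replicates 1 and 2, and horizontal bars are group means. For RACK1, FAU, EEF1B2 and TPT1 both KIAA1429 RIP points lie above both IgG RIP points.

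No member differed between the groups past the threshold of the study, a log2 fold change beyond 1 with an adjusted p under 0.05 (0 of 10). The same was true of all gene totals tested, 0 of 11361 (0%), by limma on log2(FPKM + 1) with Benjamini-Hochberg adjustment. At an unadjusted p under 0.05 there was 1 member, RACK1, and 522 gene totals (4.59%) in all, of which those higher in KIAA1429 RIP were 3.17% of the gene totals tested. The adjusted p of the 10 members was 0.997 or 0.999. An exact permutation test of 2 libraries against 2 cannot give a two-sided p below 0.333, so none is given.

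Both KIAA1429 RIP libraries lay above both IgG RIP libraries for 4 of the 10 members (RACK1, FAU, TPT1 and EEF1B2), where 16.6% of all gene totals did so. The opposite order was found for 0 of 10 members and for 15.2% of all gene totals. Members are abundant genes, and among the 436 gene totals with a mean of at least 100 FPKM the share with both KIAA1429 RIP libraries on top was 28.2%. The fold changes of 9 of the 10 members were positive on the data as deposited but those of only 6 were after quantile normalization, where EEF1G, EEF2 and PABPC1 changed sign, and 8 were under median scaling, where EEF2 did. The median log2 fold change of the members was 0.42 (0.02 over all gene totals, 0.20 over those of at least 100 FPKM, of which 69.0% were positive). It fell to 0.13 after quantile normalization, to 0.20 without IgG RIP replicate 1 and to 0.22 without KIAA1429 RIP replicate 2. Over all gene totals the medians under these settings were -0.03, 0.09 and 0.06, in the same order.

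**Figure D2:**
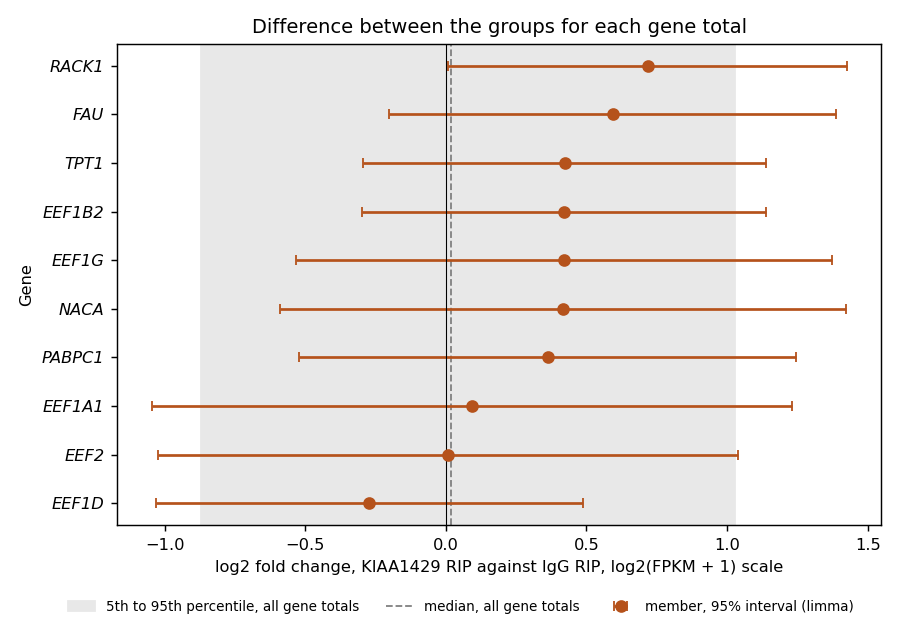
Log2 fold change of each gene total, KIAA1429 RIP against IgG RIP, on the log2(FPKM + 1) scale with limma's 95% interval. The grey band spans the 5th to 95th percentile of all 11361 gene totals (-0.87 to 1.03) and the dashed line is their median, 0.02. The 10 points lie inside the band, and the interval of RACK1 is the only one that does not include 0; EEF1G, EEF2 and PABPC1 change sign after quantile normalization, and EEF2 also under median scaling.

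EEF1A1 encodes the GTPase that brings aminoacyl-tRNA to the ribosome (chromosome 6, 74225473 to 74233520, minus strand, the span of its listed transcripts on GRCh37, as for the genes that follow). Its total was 1955 and 2195 FPKM with IgG and 1829 and 2667 FPKM with the KIAA1429 antibody. The lowest and the highest of these were the KIAA1429 RIP libraries, with both IgG RIP libraries between them. Between the groups limma gave a log2 fold change of 0.09 ± 0.48 (SE, n = 2 per group), with a 95% interval from -1.05 to 1.23, and it became -0.18 without KIAA1429 RIP replicate 2.

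The eEF1B complex, which exchanges GDP for GTP on eEF1A, is encoded by EEF1B2, EEF1D and EEF1G. EEF1B2, a catalytic subunit (chromosome 2, 207024309 to 207027652, plus strand), stood at 119 and 156 FPKM with IgG and at 199 and 167 FPKM with the KIAA1429 antibody. Both KIAA1429 RIP libraries were the higher ones, although replicate 2 of KIAA1429 RIP exceeded replicate 2 of IgG RIP only slightly. The means were 137 ± 26.0 and 183 ± 22.6 FPKM (SD, n = 2), a log2 fold change of 0.42 ± 0.30 (SE; limma, adjusted p = 0.997). Without IgG RIP replicate 1 this was 0.23.

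EEF1D encodes the delta subunit, a further exchange factor (chromosome 8, 144661867 to 144679914, minus strand). It was the only member with a negative fold change. Its total was 51.7 and 76.4 FPKM with IgG and 46.5 and 58.0 FPKM with the KIAA1429 antibody, so KIAA1429 RIP was the lower group within each replicate number and the groups overlapped. Its log2 fold change was -0.27 with an interval from -1.03 to 0.49, and without IgG RIP replicate 2 it was 0.01.

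EEF1G, the gamma subunit that holds the complex together (chromosome 11, 62327073 to 62341558, minus strand), was at 643 and 569 FPKM with IgG and at 625 and 1049 FPKM with the KIAA1429 antibody. A single library, KIAA1429 RIP replicate 2, set it apart, and the other 3 lay close together. Its log2 fold change of 0.42 had an interval from -0.53 to 1.37 and was -0.05 after quantile normalization. It was 0.05 without KIAA1429 RIP replicate 2 and 0.79 without KIAA1429 RIP replicate 1.

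EEF2 encodes the translocase of elongation (chromosome 19, 3976054 to 3985467, minus strand). Its total was 802 and 1186 FPKM with IgG and 792 and 1215 FPKM with the KIAA1429 antibody. The replicates of a group were much further apart than the groups, with replicate 2 at 1.48 times replicate 1 in IgG RIP and 1.53 times in KIAA1429 RIP. On the log2 scale the difference was 0.01 with an interval from -1.02 to 1.04, so the spread left a range of about 1 log2 unit on either side.

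PABPC1 binds the poly(A) tail and joins it to the cap through eIF4G, and its own mRNA is a TOP mRNA by general knowledge (chromosome 8, 101715144 to 101735037, minus strand). It stood at 406.0 and 530 FPKM with IgG and at 492 and 723 FPKM with the KIAA1429 antibody. KIAA1429 RIP was higher within each replicate number, but replicate 1 of KIAA1429 RIP was below replicate 2 of IgG RIP. The log2 fold change was 0.36 with an interval from -0.52 to 1.25, and it turned to -0.08 after quantile normalization. Without KIAA1429 RIP replicate 2 it was 0.08, without IgG RIP replicate 1 it was 0.17, and without KIAA1429 RIP replicate 1 or IgG RIP replicate 2 it was 0.64 or 0.55.

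NACA encodes the alpha subunit of the nascent polypeptide-associated complex, which meets new chains as they leave the ribosome (chromosome 12, 57106212 to 57125412, minus strand). The IgG libraries gave 71.8 and 163 FPKM and the KIAA1429 libraries gave 160.1 and 131 FPKM. IgG RIP replicate 1 stood alone below the other 3 libraries, and the IgG RIP replicates differed 2.27-fold, the widest span of any member. NACA had a log2 fold change of 0.42 (interval -0.59 to 1.42), and without that library it was -0.17.

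RACK1 is a scaffold protein of the small ribosomal subunit (chromosome 5, 180663928 to 180674576, minus strand). Its total was 162 and 170 FPKM with IgG and 244 and 307 FPKM with the KIAA1429 antibody. The IgG RIP replicates were nearly equal and both KIAA1429 RIP libraries were well above them, at means of 166 ± 6.14 and 275 ± 44.7 FPKM (SD, n = 2), a ratio of 1.66. A log2 fold change of 0.72 ± 0.30 (SE) was the largest of the 10, yet it was only rank 1164 of the 11361 gene totals tested. Its interval ran from 0.01 to 1.43, with an unadjusted p of 0.0479 and an adjusted p of 0.997 by limma. Over every alternative setting the log2 fold change stayed between 0.51 and 0.88. The unadjusted p (limma) did not stay under 0.05. It was 0.0527 with the filter at 5 FPKM, 0.0698 under median scaling and 0.108 after quantile normalization. Without trend it was 0.102, and with the most abundant transcript alone 0.162. It was under 0.05 with the other pseudocounts, no filter, protein_coding transcripts only and the replicate block (0.0117). With a library left out a group holds a single library, and no p is given for those fits.

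FAU encodes ribosomal protein eS30 joined to a ubiquitin-like protein (chromosome 11, 64888100 to 64889945, minus strand). It was at 120.0 and 192 FPKM with IgG and at 223 and 236 FPKM with the KIAA1429 antibody. The KIAA1429 RIP replicates were close to each other and both were the higher ones, while the IgG RIP replicates were further apart. For FAU the log2 fold change was 0.59 with an interval from -0.20 to 1.39 (limma, adjusted p = 0.997), and it was 0.26 without IgG RIP replicate 1 and 0.93 without IgG RIP replicate 2.

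TPT1 encodes the translationally controlled tumour protein TCTP (chromosome 13, 45907606 to 45915505, minus strand). Its total was 118 and 84.6 FPKM with IgG and 128 and 141 FPKM with the KIAA1429 antibody. The groups did not overlap, but the higher IgG RIP value lay just under the lower KIAA1429 RIP value. The log2 fold change was 0.42 ± 0.30 (SE), with an interval from -0.29 to 1.14. It was 0.19 without IgG RIP replicate 2 and 0.66 without IgG RIP replicate 1.

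Single libraries stood out among the members. KIAA1429 RIP replicate 2 was the highest library for 7 of the 10 members, where it was the highest for 21.7% of all gene totals, and IgG RIP replicate 1 was the lowest for 5 of them (20.02% of all). In 6 members replicate 2 was above replicate 1 in both groups, against 23.1% of all gene totals. KIAA1429 RIP was higher within both replicate numbers for 5 members (27.4% of all gene totals) and lower within both for EEF1D. The part of these libraries in the positive median was not tested beyond leaving each out. The number of members without overlap was 5 without IgG RIP replicate 1, 6 without IgG RIP replicate 2, 8 without KIAA1429 RIP replicate 1 and 4 without KIAA1429 RIP replicate 2, a criterion that is easier to meet with 3 libraries (29.4% to 40.2% of all gene totals).

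The median spread between replicates was smaller over the member totals than over all gene totals, most of which lie at lower levels. A comparison with gene totals of like level was not made. The median absolute log2 ratio of replicate 2 to replicate 1 was 0.43 over the 10 members in IgG RIP and 0.33 in KIAA1429 RIP, against 0.57 and 0.47 over all gene totals above 0. For member transcripts that averaged 10 FPKM or more the same median was 0.57 (25 transcripts) in IgG RIP and 0.60 (29 transcripts) in KIAA1429 RIP, where all such transcripts gave 0.56 and 0.43. Among the members the medians were smaller for totals than for transcripts in both groups. Over all genes the totals were those with a mean of at least 1 FPKM and the transcripts those of at least 10 FPKM. Because these thresholds differ, the medians of all totals and all transcripts are not compared.

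At the level of transcripts, 81 of the 104 listed passed the filter of a mean of 1 FPKM, and 0 were called, as for all 23375 transcripts tested (0%). At an unadjusted p under 0.05 (limma) there were 9 of the 81 (11.1%), 5 higher and 4 lower in KIAA1429 RIP, against 1253 (5.36%) of all transcripts tested. Some of them passed the filter only through the group where they were high. EEF2-207 and RACK1-211 were listed at 0 in both IgG RIP libraries. PABPC1-224 and FAU-203 had KIAA1429 RIP means of 0.352 and 0.783 FPKM. Several also share exons, so this share is a description and not a result about the members. The lowest adjusted p was 0.385. Of the 104 transcripts, 50 (48.1%) were listed at 0 in at least 1 library, against 55.5% of all listed transcripts. Transcripts of a gene share most of their exons, the tool that divided the reads among them is not named for RIP-seq, and the split is therefore less certain than the totals.

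Among the 31 member transcripts that averaged 10 FPKM or more, 6 (19.4%) had groups that did not overlap and means at least 2-fold higher in KIAA1429 RIP, where 6.27% of all transcripts of that level did. There was 1 such transcript (3.23%) that was lower, against 3.61% of all. They came from EEF2, PABPC1, NACA, RACK1 and EEF1D, and several share exons, so they are not separate observations. The filter uses the same values as the criterion. EEF2-207 and PABPC1-214 passed it only through KIAA1429 RIP, with IgG RIP means of 0 and 3.16 FPKM. EEF1D-202 passed it only through IgG RIP, with a KIAA1429 RIP mean of 5.13 FPKM. The shares are therefore a description and not a result about the members.

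NACA-201 (ENST00000356769) was at 4.52 and 31.8 FPKM with IgG and 87.3 and 82.0 FPKM with the KIAA1429 antibody. NACA-202 took the larger share in IgG RIP replicate 2, at 99.8 FPKM, with 15.8 FPKM in IgG RIP replicate 1 and 22.2 and 3.08 FPKM in KIAA1429 RIP. The log2 fold change of NACA-201 was 2.67 (interval 0.34 to 4.99; limma, adjusted p = 0.879), whereas that of the NACA total was 0.42. These transcripts overlap, and the one with the higher FPKM was NACA-202 in both IgG RIP libraries and NACA-201 in both KIAA1429 RIP libraries.

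PABPC1-201 (ENST00000318607), the main transcript, was at 315 and 350 FPKM with IgG and at 246 and 288 FPKM with the KIAA1429 antibody. It was lower in both KIAA1429 RIP libraries, while the PABPC1 total was not. Its share of the total was 77.7% and 66.0% with IgG and was lower in both KIAA1429 RIP libraries, at 39.8% in replicate 2. Taken alone, the transcript had a log2 fold change of -0.32.

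The other PABPC1 transcripts made up the difference. PABPC1-219 (ENST00000522387) was at 11.4 and 13.1 FPKM with IgG and at 26.7 and 261 FPKM with the KIAA1429 antibody, so 1 library carried most of it. PABPC1-209 (ENST00000519100) gave 11.2 and 20.7 FPKM against 32.3 and 55.1 FPKM, and PABPC1-214 (ENST00000520142) gave 6.32 FPKM and 0 against 36.8 and 37.3 FPKM. Their unadjusted p was 0.0609, 0.0342 and 0.0143, and the adjusted p was 0.879, 0.879 and 0.806 by limma.

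In both IgG libraries EEF2-207 (ENST00000600794; chromosome 19, 3976054 to 3978132) stood at 0 in the list, and with the KIAA1429 antibody it was at 19.7 and 39.3 FPKM. This was the lowest p of any member transcript (unadjusted p = 0.000444; limma, adjusted p = 0.385). Its listed start lies 7329 bases downstream of the RefSeq start, at the 3′ end of the gene, and it overlaps the main transcript. EEF2-201 (ENST00000309311) held between 96.6% and 99.8% of the EEF2 total in every library.

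RACK1-227 (ENST00000512805), the main RACK1 transcript, was at 155 and 120 FPKM with IgG and at 167 and 237 FPKM with the KIAA1429 antibody. RACK1-201 (ENST00000376817), whose listed start is 3 bases from the RefSeq start shown above, was listed at 0 in IgG RIP replicate 1 and was at 29.5 FPKM in replicate 2, and it was at 43.9 and 46.4 FPKM in KIAA1429 RIP. Both transcripts had no overlap between the groups. The unadjusted p of RACK1-201 was 0.124 (limma), with the IgG RIP replicates far apart.

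EEF1D-202 (ENST00000395119) was the transcript that met this criterion of at least 10 FPKM and was lower in KIAA1429 RIP. It was at 14.7 and 21.6 FPKM in IgG RIP against 5.48 and 4.78 FPKM. This was a log2 fold change of -1.62 (interval -2.71 to -0.54; limma, adjusted p = 0.793). EEF1D had the most transcripts, 26 listed, of which 15 passed the filter, and no other of them met the criterion. Transcripts of EEF1D with a lower mean were also without overlap, in both directions. EEF1D-225 gave 10.7 and 13.6 FPKM with IgG against 0.976 and 1.37 FPKM. EEF1D-243 was listed at 0 and at 5.62 FPKM with IgG, against 7.94 and 10.6 FPKM.

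The main transcripts of EEF1A1, EEF1B2 and TPT1 overlapped between the groups. EEF1A1-203 (ENST00000331523) was at 1515 and 1653 FPKM with IgG and at 1120 and 2024 FPKM with the KIAA1429 antibody, between 61.3% and 77.5% of the EEF1A1 total. EEF1B2-202 (ENST00000392221) went from 94.6 to 17.9 FPKM between the IgG RIP replicates and from 127 to 47.8 FPKM between the KIAA1429 RIP replicates, so replicate 1 was the higher one in both groups. TPT1-212 (ENST00000530705) gave 35.2 and 68.1 FPKM against 66.4 and 81.8 FPKM.

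EEF1G and FAU were held almost entirely by a single transcript. EEF1G-201 (ENST00000329251) carried between 97.9% and 99.5% of the total. FAU-207 (ENST00000529639) carried between 83.7% and 92.9%, at 100.4 and 164 FPKM with IgG and 207 and 197 FPKM with the KIAA1429 antibody, and like the FAU total it did not overlap. EEF1A1-210 and EEF1A1-211 share the same listed span, and each was above 0 in 1 library only, with 268 FPKM in KIAA1429 RIP replicate 2 for the first and 196 FPKM in IgG RIP replicate 2 for the second.

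**Figure D3:**
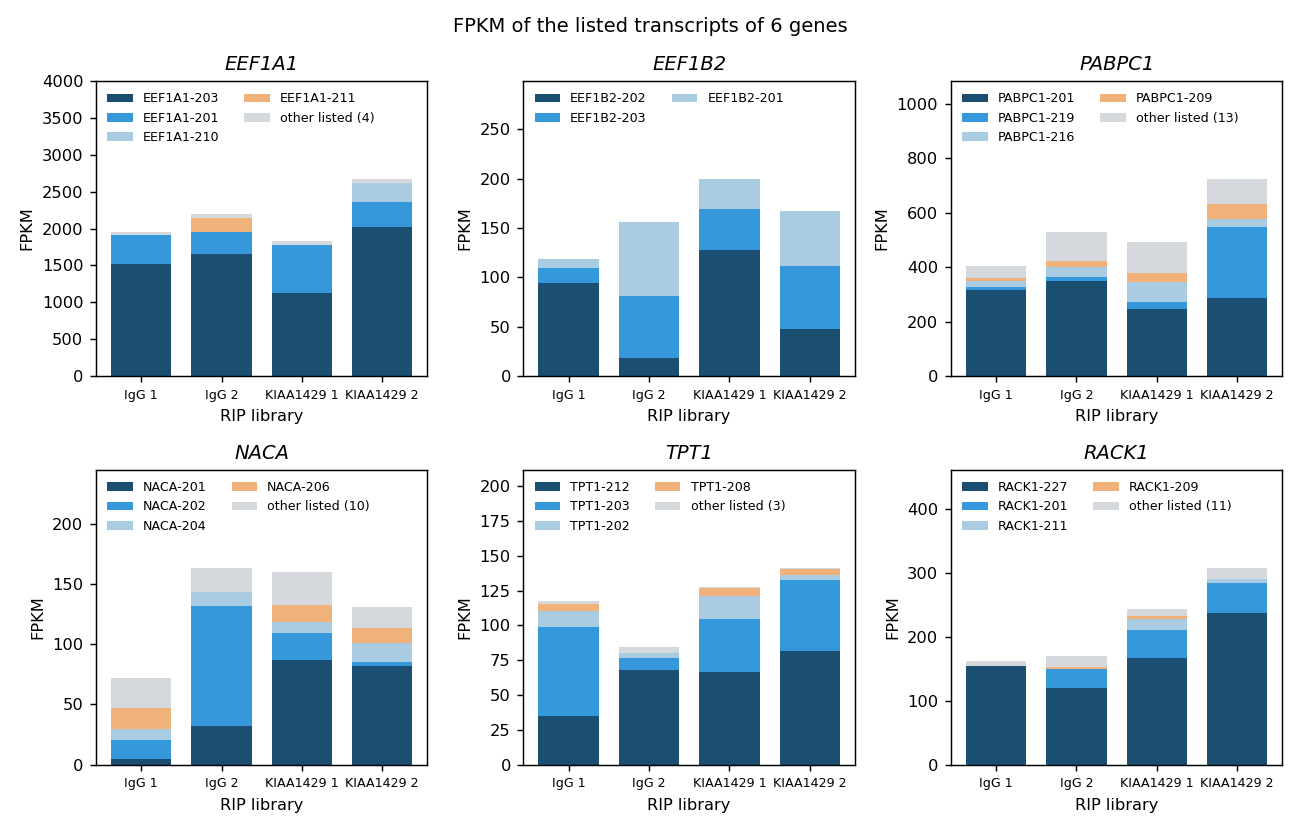
FPKM of the listed transcripts of 6 genes in each library, as stacked bars that add up to the gene total (vertical axes start at 0, one scale per gene). The colours are the 3 or 4 most abundant transcripts of a gene and grey the rest. EEF1B2-202 falls from replicate 1 to replicate 2 of both groups, NACA-202 fills IgG RIP replicate 2, and PABPC1-219 fills a large part of KIAA1429 RIP replicate 2 at 261 FPKM.

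How much of each gene total lay on transcripts that begin near the RefSeq start shown was also counted, with a listed start within 50 bases of it. This describes annotated transcripts, since the reads came from random primers and the first base of an mRNA was not measured. For EEF2 the share was 99.8% in both IgG RIP libraries and 97.5% and 96.6% in KIAA1429 RIP. For TPT1 it was 68.1% and 14.1% with IgG and 47.2% and 41.4% with the KIAA1429 antibody, with the replicates of IgG RIP furthest apart.

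For NACA the share was 55.5% and 63.9% with IgG and 35.7% and 19.3% with the KIAA1429 antibody, lower in both KIAA1429 RIP libraries. RACK1 gave 1.21% and 22.5% against 26.7% and 19.5%, and FAU gave 9.24% and 7.61% against 5.57% and 14.1%, with overlap in both. For EEF1A1 it was 0.868% and 10.3% against 1.48% and 10.4%, and its main transcript is listed with a start 689 bases upstream. The transcripts of EEF1G began outside this window, as did those of EEF1B2 for the TOP start shown, and the share was 0%. The listed starts of EEF1B2 were instead within 50 bases of its other RefSeq start, which begins with A. Among these genes EEF2 alone was assigned almost wholly to a transcript with a listed start inside this window. That start, of EEF2-201, is listed 6 bases upstream of the RefSeq start. A start inside the window is therefore not shown to be the first base of the tract.

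The remaining genes of elongation and the TOP class were described by a list of 67 genes, of which 63 were listed and passed the filter (EEF1AKMT1, EEF1AKMT4, DOHH and PAIP2B have no values here). None was called (0 of 63; 3 had an unadjusted p under 0.05), 38 of 63 fold changes were positive and the median was 0.12, against 51.4% positive and a median of 0.02 over all gene totals. Both KIAA1429 RIP libraries were the higher ones for 11 of the 63 and the lower ones for 8, shares near the 16.6% and 15.2% of all gene totals. The members' median of 0.42 was above the median of each group of this list.

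Of the 14 other TOP mRNAs, 10 were positive (median 0.17) and 6 had both KIAA1429 RIP libraries on top, beside 16.6% of all gene totals and 28.2% of those of at least 100 FPKM. BTF3, which pairs with NACA in the nascent polypeptide-associated complex, was at 171 and 129 FPKM with IgG and at 278 and 306 FPKM with the KIAA1429 antibody, with no overlap. Its log2 fold change was 0.97 (unadjusted p = 0.0159; limma, adjusted p = 0.997). The more abundant VIM, which encodes the intermediate filament vimentin, was at 907 and 980 FPKM with IgG and 659 and 1084 FPKM with the KIAA1429 antibody, and EIF4B, which stimulates the cap-bound helicase, gave 414 and 405 FPKM against 368 and 472 FPKM, so in both genes the groups overlapped. The fold change of BTF3 was larger than that of any member.

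Of the 19 partners and modifiers of elongation factors, 9 were positive (median -0.03). EIF5A, which helps the ribosome over difficult peptide bonds, was at 230 and 157 FPKM with IgG and 191 and 166 FPKM with the KIAA1429 antibody, and VARS, the valyl-tRNA synthetase that binds the eEF1 complex, was at 47.0 and 39.0 FPKM against 47.7 and 33.4 FPKM. DPH2, needed for the diphthamide residue of eEF2, was at 7.18 and 7.29 FPKM in IgG RIP, at 1.88 FPKM in KIAA1429 RIP replicate 1 and listed at 0 in replicate 2. It had the lowest p of the list (unadjusted p = 0.00983; limma, adjusted p = 0.993), at a level far below that of any member. EIF5A and VARS overlapped between the groups.

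Of the 5 mitochondrial elongation factors, 4 were positive (median 0.04). TUFM, the mitochondrial counterpart of eEF1A, overlapped at 73.9 and 74.9 FPKM with IgG and 81.2 and 72.5 FPKM with the KIAA1429 antibody. TSFM, its exchange factor, gave 24.8 and 14.6 FPKM against 19.8 and 19.1 FPKM, also with overlap. GFM1, the mitochondrial counterpart of eEF2, was higher in both KIAA1429 RIP libraries, at 4.76 and 5.37 against 11.8 and 11.7 FPKM (log2 fold change 1.08; limma, adjusted p = 0.997).

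The regulators of TOP mRNAs and poly(A)-binding protein, the rescue factors and the nascent chain factors were 25 genes, with group medians of -0.10, 0.02 and 0.26. LARP1, which binds the TOP tract, was at 182 and 125 FPKM with IgG and 146 and 132 FPKM with the KIAA1429 antibody, with overlap. CNBP, which binds TOP mRNAs, gave 52.4 and 56.9 FPKM against 52.3 and 46.9 FPKM, and TIAL1, an RNA-binding repressor of TOP mRNAs, gave 20.1 and 27.9 FPKM against 18.2 and 14.7 FPKM, both lower in each KIAA1429 RIP library. HBS1L, a rescue factor related to eEF1A, was at 14.4 and 10.4 FPKM against 4.86 and 6.95 FPKM, and ABCE1, which splits ribosomes after termination, was at 21.2 and 24.1 FPKM against 16.4 and 12.8 FPKM. These lay below the IgG RIP libraries without overlap, but no adjusted p was under 0.997 (limma). GTPBP2, a rescue GTPase, overlapped at 15.6 and 19.2 against 16.8 and 16.1 FPKM, as did the chaperone HSPA8, at 269 and 274 against 274 and 306 FPKM, while METAP2, which removes the first methionine of new chains, did not, at 34.7 and 30.2 against 43.0 and 40.9 FPKM.

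The class of TOP mRNAs with the most genes, that of the cytosolic ribosomal proteins, was taken as 82 gene totals by name. Its median log2 fold change was 0.66, with 81 of 82 positive and 60 of 82 without overlap (16.6% of all gene totals; 34.3% of other gene totals under 1000 bases and of at least 100 FPKM), none called (lowest adjusted p = 0.901, limma; 17 with an unadjusted p under 0.05). The median was 0.41 without IgG RIP replicate 1 and 0.95 without IgG RIP replicate 2. After quantile normalization it was 0.39 with 73 positive, and the members' median was 0.13. Ribosomal protein genes took 7.98% and 11.3% of all FPKM with IgG and 12.7% and 14.6% with the KIAA1429 antibody. RACK1 and FAU, the 2 members on the ribosome, had the largest fold changes of the members (0.72 and 0.59) and came nearest to the median of that class, whereas those of EEF1A1 and EEF2 were 0.09 and 0.01. The difference between the members and ribosomal protein genes was not tested.

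The gene totals outside the members and the list whose pattern over the 4 libraries was most like the members' mean profile were MT2A, RPS16 and CLIC1, out of 414 with a mean of at least 100 FPKM. The distance between centred log2 profiles was 0.0354, 0.0945 and 0.106. MT2A was at 683 and 881 FPKM with IgG and at 866 and 1044 FPKM with the KIAA1429 antibody, with KIAA1429 RIP replicate 2 the highest library and IgG RIP replicate 1 the lowest. RPS16 gave 290 and 398 FPKM against 392 and 480 FPKM, and CLIC1 gave 171 and 213 FPKM against 206 and 278 FPKM. All had this order of libraries, and it is a likeness over 4 libraries only.

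Transcript length moved with the fold change over all genes. The lengths below are those of each gene's most abundant listed transcript, from GENCODE v44 mapped to GRCh37, which gave a length to 97.4% of gene totals. The median log2 fold change of the other gene totals fell from 0.24 under 1000 bases (1385 gene totals) through 0.12 between 1000 and 1999 bases (2113) and 0.03 between 2000 and 3999 bases (3746) to -0.08 from 4000 bases (3732). The members ranged from 506 bases in FAU to 4548 bases in TPT1. FAU, EEF1B2 (880 bases) and RACK1 (1140 bases) were the shortest and were among the 4 without overlap, but EEF1D (1249 bases) was short and negative, and TPT1 was the longest and did not overlap. The length of TPT1 is that of TPT1-212, which held 29.9% of the total in IgG RIP replicate 1, where TPT1-203 held 54.1%, so the value rests on which transcript is taken. The same limit holds for other members. The transcript used held 6.29% and 19.5% of the NACA total with IgG and between 8.25% and 28.5% of the EEF1D total. For EEF1B2 it held 11.5% in IgG RIP replicate 2. Spearman's rho of length and log2 fold change was -0.39 over the 10 members and -0.19 over all gene totals, given as a description. Among other gene totals of at least 100 FPKM the median was 0.36 under 1000 bases, 0.10 from 1000 to 1999 bases and -0.05 above, so 0.59 for FAU is to be read beside 0.36, and 0.72 for RACK1 beside 0.10. The part of length in the members' differences was not tested.

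**Figure D4:**
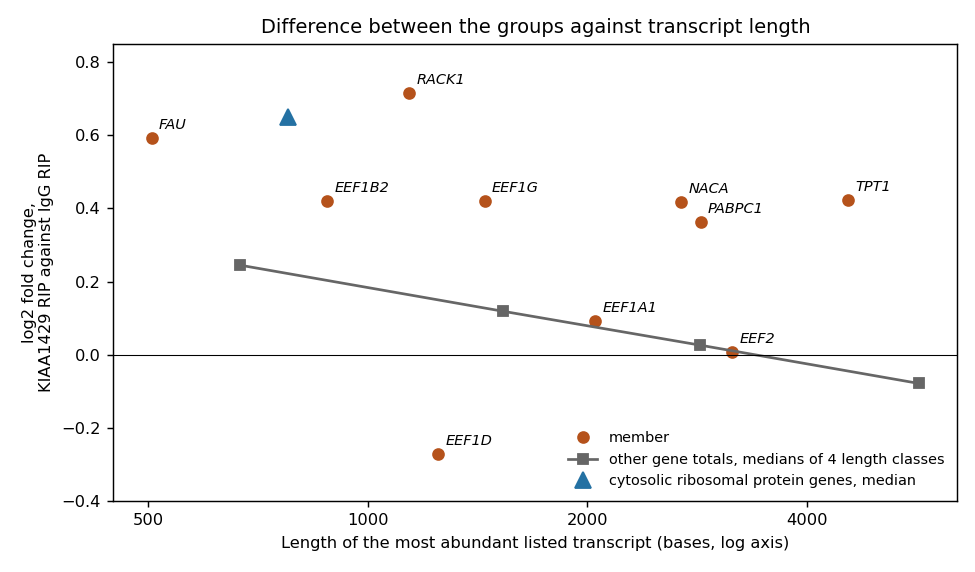
Log2 fold change of the 10 gene totals (points) against the length of the most abundant listed transcript (log axis). Squares joined by a line are medians of the other gene totals in 4 length classes and the triangle is the median of ribosomal protein genes. The medians fall from 0.24 to -0.08 with length, and RACK1 at 1140 bases lies furthest above the line; EEF1G, EEF2 and PABPC1 change sign after quantile normalization, and EEF2 also under median scaling.

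The methylation complex prefers adenosines in a short motif of which the letters GGAC, searched here on the transcribed strand only, are a common core. EEF2-201 held 26 matches, or 8.23 per 1000 bases, at percentile 95.03 of the gene totals with a length. EEF1G followed with 5.53 and EEF1A1 with 4.39 per 1000 bases, and the lowest were FAU with 1.98 and NACA with 1.86, against a median of 3.60 over all gene totals and 3.33 over the members. The value of NACA is that of NACA-201, which held 6.29% and 19.5% of the total with IgG. The log2 fold changes were 0.01 for EEF2, 0.42 for EEF1G and 0.09 for EEF1A1, which had the densest matches. They were 0.59 for FAU and 0.42 for NACA, which had the sparsest, and 0.72 for RACK1 with 3.51 per 1000 bases. The part of the motif in these differences was not tested. A match is a description of letters and not of a methylated site.

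The labelled cell line was checked by 12 hepatocyte or hepatocellular markers, and all were listed, with KRT18 between 820 and 1048 FPKM, AFP between 99.1 and 128 FPKM and ALB between 53.5 and 76.3 FPKM. HNF4A was low, between 0.305 and 1.11 FPKM. Of 6 markers of blood, stroma and endothelium, CD68 was listed (28.7 to 72.2 FPKM), and PTPRC, COL1A1, DCN, PECAM1 and VWF have no values here.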

How the data were processed

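RIP-seq of HCCLM3 cells was compared between KIAA1429 RIP and IgG RIP, with 2 libraries each, grouped by the labels. By the methods of the study, poly(A) RNA from the precipitates was fragmented, copied with random primers and sequenced, and reads were aligned to GRCh37/hg19 by HISAT2, whereas the submitters' processing notes name Bowtie2 2.1.0. What the authors deposited is 1 FPKM value for each transcript, with a file per library. The tool that estimated FPKM and the annotation release are not given in the sources used here. The depth per library is unknown, so no counting error is given and precision was judged from the replicates.

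FPKM was summed per gene name. Features with a mean of at least 1 FPKM (23375 transcripts, 11361 gene totals) were compared on the scale log2(FPKM + 1), on which changes of low genes appear smaller, by limma 3.58.1 (lmFit; eBayes with trend; R 4.3.3). Tests were two-sided and p-values were adjusted over all features of a fit by Benjamini-Hochberg. FPKM values are not counts, and the count test named in the study was not run. Other values were computed in Python 3.11.15 with numpy 2.4.6 and pandas 2.3.3. An exact 0 is given as listed at 0.

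The members, the translation list and the transcripts to name were chosen with earlier results of these data known. Named were all members, their most abundant transcripts, their transcripts of at least 10 FPKM with means at least 2-fold apart and no overlap, the 2 most abundant genes and that with the lowest p of each group of the list, and the 3 gene totals nearest in profile. EEF1A1-210, EEF1A1-211, NACA-202 and TPT1-203 were named after their values were seen.

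Alternatives were pseudocounts of 0.1 and 0.01, no filter and a filter at 5 FPKM, median scaling, quantile normalization, limma without trend, the replicate block, protein_coding transcripts only, the most abundant transcript alone, and each library left out.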

Additional observations from a re-analysis of the deposited data

How the results depend on the processing

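No member, member transcript or gene of the translation list was called under any alternative that was run. Of 140 member fold changes recomputed under 14 settings, 128 kept their direction and 12 reversed. No filter, the filter at 5 FPKM, limma without trend and the replicate block cannot alter a member's fold change. Their values are among those kept and say nothing about stability. The reversed values were -0.0128 for EEF2 under median scaling, -0.0529 for EEF1G, -0.30 for EEF2 and -0.0761 for PABPC1 after quantile normalization, and -0.0719 for EEF1A1, -0.0327 for EEF2 and -0.32 for PABPC1 with the most abundant transcript alone. With 1 library left out, EEF1A1 ran from -0.18 (without KIAA1429 RIP replicate 2) to 0.36, EEF1D from -0.55 to 0.00506 (without IgG RIP replicate 2), EEF2 from -0.30 (without KIAA1429 RIP replicate 2; -0.27 without IgG RIP replicate 1) to 0.32, and NACA from -0.17 (without IgG RIP replicate 1) to 1.00. The median of the members was 0.13 after quantile normalization and ran from 0.20 to 0.44 with 1 library left out. The number of members without overlap, an alternative chosen after seeing the data, ran from 4 to 8. The share of the FPKM sum held by the members in IgG RIP was 1.60%, and 1.83% over protein_coding transcripts only. The cause of these differences was not tested, beyond the fewer libraries or transcripts that each leaves. A library left alone in its group was assumed to vary like the other group.

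The replicate numbers of the labels were not taken as pairs, since the correlation of the deviations of same-numbered libraries was 0.19 over gene totals and 0.03 over transcripts and there are only 2 numbers. With the replicate block, 12 gene totals were called higher and 1 lower over all genes (0 without it), 0 of them members, and 0 transcripts were called. The lowest adjusted p of a member under the block was 0.353, for RACK1 (limma). The interval of FAU then also left out 0, from 0.04 to 1.14 (limma, unadjusted p = 0.0369, adjusted p = 0.508). Every member's call was the same with the pairing. The block cannot change a fold change in this balanced design, so the median of the members stayed at 0.42.

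With 2 libraries per group and FPKM only, the 95% intervals of the members span more than 1 log2 unit, and at the adjusted threshold differences of the size seen in the members, and larger ones elsewhere, were not called.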
